A study of Mus musculus with 6 samples.

Results

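This account covers 31 mouse genes of programmed cell death: caspases, the BCL2 family, inhibitor of apoptosis (IAP) genes, and the genes of death receptor signalling, necroptosis and pyroptosis. They were chosen by gene symbol from a list, all 31 were found among the 24930 genes of the table, and 30 of the 31 reached a mean of 1 unit over the 6 libraries and were tested. Bik stayed under that minimum. Messenger RNA was measured in primary intestinal crypt epithelium of mice, at 4 days after induction. The mutant group, β-catenin GOF/+, carries a single mutant gain-of-function allele of β-catenin beside a normal one, and the control group is labelled control only; each has 3 libraries. The labels do not give the strain, the age of the mice, the driver of recombination or whether controls also received the inducing agent. They do not say that libraries came from separate animals either, so a p-value reflects only how these 6 libraries scatter, some of which may be technical. A value is a normalized abundance per gene, called a unit here, and is compared between libraries and never between genes.

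Apoptosis runs through caspases, proteases that cut proteins next to aspartate. Initiator caspases are switched on either by death receptors at the cell surface or by mitochondria that have been opened by pore formers of the BCL2 family; guardians of the same family hold the pore formers back, BH3-only proteins block the guardians, and IAP proteins restrain caspases downstream. Necroptosis, driven by RIPK3 and MLKL when CASP8 is inactive, and pyroptosis, driven by inflammatory caspases that cut gasdermin D, both rupture the membrane and release inflammatory contents. In the intestinal epithelium, cells are lost continuously at the villus tip, and loss of CASP8 or FADD in mice is known to cause necroptosis of epithelial cells.

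Promoter sequence was matched to the genes by symbol. RefSeq start sites on GRCm38.p6 were matched for 29 of the 31 genes, with 41 windows in all. 5 genes are shown. Casp1, Casp4 and Casp12 are inflammatory caspase genes on the same strand of chromosome 9, and none of the 3 passed the test described below. Casp1 and Casp12 were lower on average in mutants and were lowest of the 6 libraries in mutant replicate 3, where Casp4 was highest. Ripk3 and Bak1 were the members that stood higher in every mutant library than in every control library. Each line gives the 250 bases before the start site, 5′ to 3′ along the gene's strand, with matches to any of 6 searched motifs in capitals.
Casp1 (chr9:5298267-5298516, + strand): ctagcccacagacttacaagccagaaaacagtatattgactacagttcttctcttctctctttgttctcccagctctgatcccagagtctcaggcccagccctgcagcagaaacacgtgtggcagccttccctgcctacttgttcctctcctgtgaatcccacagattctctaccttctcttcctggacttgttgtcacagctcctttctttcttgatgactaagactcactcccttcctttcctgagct
Casp4 (chr9:5308599-5308848, + strand): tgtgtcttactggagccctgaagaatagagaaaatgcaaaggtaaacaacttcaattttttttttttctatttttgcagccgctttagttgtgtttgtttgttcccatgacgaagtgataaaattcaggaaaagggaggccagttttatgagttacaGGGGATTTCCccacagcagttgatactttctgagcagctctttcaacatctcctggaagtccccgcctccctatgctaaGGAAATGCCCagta
Casp12 (chr9:5345226-5345475, + strand): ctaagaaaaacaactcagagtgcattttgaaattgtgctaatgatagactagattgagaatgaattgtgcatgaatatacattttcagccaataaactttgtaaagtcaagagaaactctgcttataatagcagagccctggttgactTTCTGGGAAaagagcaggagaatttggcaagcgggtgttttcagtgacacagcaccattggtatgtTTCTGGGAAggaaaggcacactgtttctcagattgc
Ripk3 (chr14:55788858-55789107, - strand): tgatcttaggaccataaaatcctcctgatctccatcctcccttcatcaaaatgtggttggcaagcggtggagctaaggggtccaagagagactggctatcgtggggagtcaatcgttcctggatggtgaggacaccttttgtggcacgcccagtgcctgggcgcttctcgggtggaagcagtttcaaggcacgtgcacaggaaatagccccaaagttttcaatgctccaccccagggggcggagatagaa
Bak1 (chr17:27028628-27028877, - strand): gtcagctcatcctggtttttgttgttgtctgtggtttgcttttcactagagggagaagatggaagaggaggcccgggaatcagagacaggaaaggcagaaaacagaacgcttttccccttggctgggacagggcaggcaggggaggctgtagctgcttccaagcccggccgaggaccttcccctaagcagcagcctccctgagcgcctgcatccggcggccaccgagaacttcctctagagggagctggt

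The motifs were searched on both strands of windows that run from 250 bases before to 50 bases after a start site. The NF-kB motif was GGG, any 2 bases, then TTTCC. The interferon-stimulated response element was TTTC, any 2 bases, then TTTC. The gamma-activated sequence of STAT factors was TTCNNNGAA, the TCF/LEF motif ATCAAAG and the AP-1 motif TGANTCA; the p53 half-site was searched as well. Capitals in Casp4 mark 2 matches to the NF-kB motif, which 1.63% of all 32851 RefSeq windows held at least once. Bcl2l1 and Mcl1 also held it. Capitals in Casp12 mark 2 matches to the gamma-activated sequence, held by 8.3% of all windows, and that motif was also found for Tnfrsf1a and Ripk1. The interferon-stimulated response element was found for Cflar and Ripk1 (3.44% of all windows), where the Ripk1 match overlaps a gamma-activated sequence. The TCF/LEF motif was found for Birc2 (3.73%), the p53 half-site for Birc2 and Bmf (8.36%), and the AP-1 motif for 0 of the 29 genes (7.81%). All percentages are shares of single windows. A gene was counted if any of its windows matched, and the 29 genes had 41 windows, so the measures are not alike. Casp1, Ripk3 and Bak1 held none of the 6 motifs in these windows. A match is a run of letters, and neither a match nor its absence shows where a factor binds.

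None of the 30 tested cell death genes passed the test between mutant and control crypts. With limma on log2(units + 1) and Benjamini-Hochberg adjustment over all 11837 genes tested, 0 members were higher and 0 were lower at an adjusted p under 0.05, where 0.0% of all tested genes were called higher and 0.0169% lower. The smallest adjusted p of a member was 0.589. At an unadjusted p under 0.05, 1 member was higher (Ripk3) and 2 were lower (Casp12 and Casp2), against 4.72% and 3.59% of all tested genes. Differences on the log2 scale ran from -0.59 for Bmf to 1.09 for Gsdmd, with a median of 0.07 over the members and -0.02 over all tested genes. The median size of a difference, whatever its sign, was 0.29 over the members and 0.20 over all tested genes. Of the 30 only Gsdmd differed by more than 1, beside 441 of the 11837 genes tested; with a pseudocount of 0.1, Casp12 and Bmf also did. Higher on average in mutant crypts were 16 of the 30 (47.3% of all tested genes) and lower 14 (52.7%). Without mutant replicate 3 the median over the members was -0.05.

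Groups that did not overlap were found for 7 of 30 members, or 23.3%, beside 16.7% of all tested genes. For 2 members, Bak1 and Ripk3, every mutant library exceeded every control library, beside 8.34% of all tested genes. For 5 members, Casp12, Casp2, Bcl2l2, Bcl2l11 and Bcl2l14, every mutant library was lower than every control library, beside 8.37%. These are small counts on 30 genes, and no test was made of the list.

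**Figure D1:**
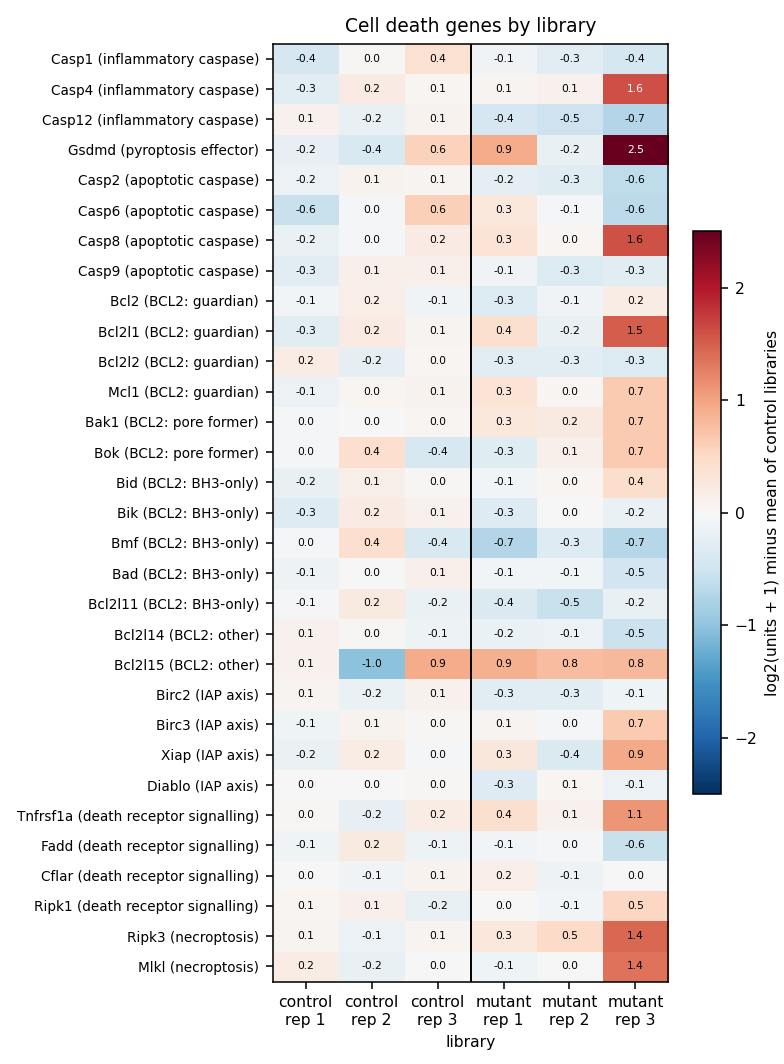
Difference of each library from the mean of the control libraries, on log2(units + 1), for the 31 cell death genes (rows, with their role) in the 6 libraries (columns); the number in each cell is that difference and red is higher. Most cells are pale, and the darkest reds are in mutant replicate 3, for Gsdmd, Casp8, Casp4, Bcl2l1, Ripk3 and Mlkl.

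Libraries also differed in genes other than those of cell death. Mutant replicate 3 stood apart: it held the highest of the 6 values for 29.7% and the lowest for 36.4% of all tested genes. Summed units of 20 interferon response genes were 223 to 394 in control libraries, 240 and 241 in mutant replicates 1 and 2, and 1700 in mutant replicate 3, where all 20 were highest. Summed units of 18 immune cell markers were 105 to 175 in control libraries and 92.0 to 380 in mutant libraries. The T cell gene Cd3g was at 8.91 to 20.1 and 6.65 to 23.9 units, so libraries of both groups held transcripts of lymphocytes. Of 14 tested immune markers, 13 were highest in mutant replicate 3. Stromal markers summed to 6.78 to 12.5 units in controls against 22.0 to 50.5 units in mutants. Of the 14, 11 were higher in every mutant library. Only 7 were tested, of which 6 were higher in every mutant library, beside 8.34% of all tested genes. The untested stromal markers were near the floor, such as Pdgfra at 0 in all control libraries and 0.103 to 0.204 units in mutants. Col1a2, Col3a1, Dcn, Sparc and Mgp were under 1 unit in every control library and reached the minimum through the mutant libraries. Villus enterocyte markers (12 genes) summed to 3790 to 10500 and 6030 to 26200 units, and Paneth cell markers (10 genes) to 115000 to 407000 and 42600 to 190000 units. Epithelial markers were present in all 6 libraries (8 genes, 4310 to 6260 summed units). Fewer cells of a type and less RNA per cell cannot be told apart in such bulk samples, and the part of these differences in the values below was not tested.

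**Figure D2:**
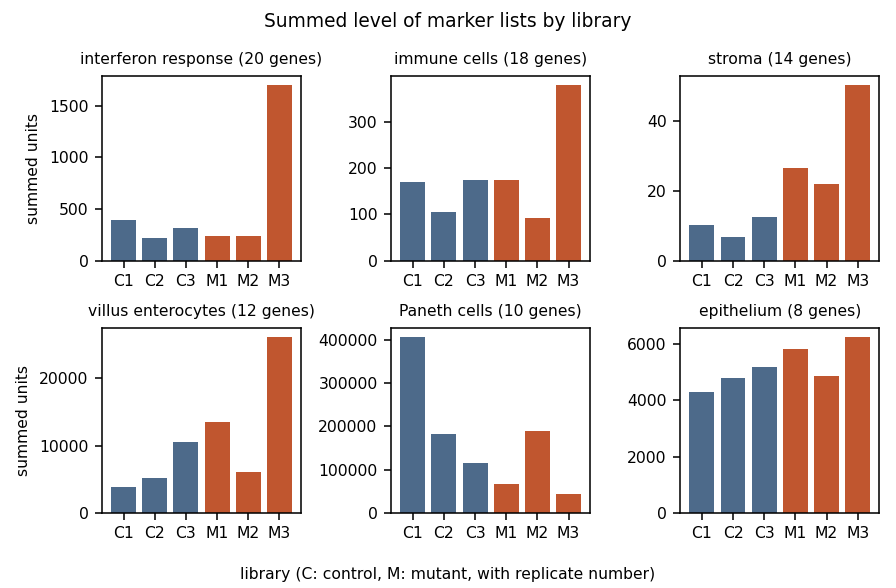
Summed units (vertical axes, linear, each with its own scale) of 6 lists of marker genes in the 3 control (C1 to C3) and 3 mutant (M1 to M3) libraries. Interferon response genes reached 1700 units in M3 against at most 394 elsewhere, and stromal markers were higher in all 3 mutant libraries than in all 3 control libraries.

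The inflammatory caspases and gasdermin D, the pyroptosis genes, did not move as 1 group. Casp12, an inflammatory caspase gene also linked to stress of the endoplasmic reticulum, had 1.64, 1.15 and 1.59 units in control replicates 1, 2 and 3 and 0.823, 0.711 and 0.479 units in mutant replicates 1, 2 and 3. Every mutant value lay below every control value. The log2 difference was -0.56 ± 0.19 (SE, n = 3 per group), with an adjusted p of 0.589 in limma and the smallest unadjusted p among the members, 0.0238. These levels are near the minimum for testing, so the log2(units + 1) scale understates the difference; with a pseudocount of 0.1 it was -1.03, and with 5 it was -0.19. Casp12 went under the minimum mean without control replicate 1 or 3 and was not tested there.

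Casp4, which senses bacterial lipopolysaccharide in the cytosol, had 10.7, 15.2 and 13.6 units in controls against 13.7, 14.1 and 42.0 units in mutants; it and Gsdmd are given in full although they were singled out after their values were seen. Mutant replicates 1 and 2 lay within the control range, and mutant replicate 3 was 2.77 times the next highest library. Mutants differed from controls by a log2 of 0.60 ± 0.42 with all libraries and 0.09 ± 0.17 without mutant replicate 3 (limma adjusted p of 0.615 and 0.971). Its promoter is the one with the 2 NF-kB matches printed above, a motif that Bcl2l1 and Mcl1 also held. A link between the motif and these values was not tested. Casp1, which matures the cytokines IL1B and IL18, had 111 ± 30.6 units in controls against 90.4 ± 11.1 units in mutants (mean ± SD, n = 3 each). Its lowest value, 79.3 units, was in mutant replicate 3, the library with the most Casp4.

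Gsdmd encodes the protein whose cut fragment forms the pores of pyroptosis. It had 45.7, 39.9 and 79.2 units in controls against 101, 46.3 and 308 units in mutants. Mutant replicates 1 and 3 lay above all control values, and mutant replicate 2 lay among them. The log2 difference of 1.09 ± 0.65 was the highest among the members, with a 95% confidence interval of -0.45 to 2.64 (adjusted p of 0.593 in limma). Without mutant replicate 3 it was 0.38 ± 0.41, and without mutant replicate 2 it was 1.73. Among control libraries Gsdmd was highest in replicate 3, which also had the highest summed level of villus enterocyte markers in that group.

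Of the 4 apoptotic caspases, 3 were lower and 1 was higher, and none passed. Casp2, an initiator caspase activated in the PIDDosome complex, had 20.4, 24.1 and 23.9 units in controls against 19.3, 18.3 and 14.4 units in mutants. All mutant values lay below all control values, with mutant replicate 1 just under control replicate 1. On the log2 scale the difference was -0.38 ± 0.16 (unadjusted p of 0.0458, limma adjusted p of 0.589), and -0.26 ± 0.14 without mutant replicate 3. Casp8, the initiator of death receptor apoptosis and the brake on necroptosis, had 34.9, 38.5 and 45.7 units in controls against 50.6, 40.8 and 121 units in mutants. Mutant replicate 3 was 2.39 times the next highest library, and the groups overlapped through mutant replicate 2. The log2 difference of Casp8 was 0.66 ± 0.39, and 0.20 ± 0.18 without mutant replicate 3 (limma adjusted p of 0.590 and 0.938).

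Casp9, the initiator on the mitochondrial apoptosome, had 8.52 ± 1.4 units in controls against 7.09 ± 0.735 units in mutants (n = 3 each). Casp6, an effector caspase, had 91.8 ± 37.4 and 81.1 ± 24.7 units. Casp6 varied more among control libraries, from 58.9 to 132 units, than between the group means. The groups overlapped for both.

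BCL2 family members were split: of 12 tested, 6 were higher and 6 lower, with a median log2 difference of 0.02. The pore former gene Bak1 had 66.3, 67.3 and 69.7 units in controls against 81.5, 79.6 and 108 units in mutants. Control libraries lay close together, and the lowest mutant library stood above the highest of them. The log2 difference was 0.38 ± 0.16 with a 95% confidence interval of -0.0016 to 0.77 (limma adjusted p of 0.589), and 0.25 ± 0.13 without mutant replicate 3. In the GENCODE M21 annotation 25.5% of the exon bases of Bak1 are shared with Ggnbp1 on the opposite strand, a gene listed here at a mean of 2.18 units, and the sources used here do not say whether counting used strand. Bok, a related pore former, had 5.59 ± 1.87 and 6.42 ± 2.49 units in controls and mutants.

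Guardians, which hold the pore formers in check, did not share a direction: 2 were higher and 2 lower, and none passed. Mcl1, a short-lived guardian needed for survival of the intestinal epithelium in mice, had 52.3, 59.9 and 61.9 units in controls against 74.0, 59.7 and 91.4 units in mutants. Mutant replicates 1 and 3 lay above the control range and mutant replicate 2 within it. The log2 difference of Mcl1 was 0.35 ± 0.19, and 0.20 ± 0.16 without mutant replicate 3 (limma adjusted p of 0.590 and 0.938). Bcl2l1, which encodes BCL-XL, had 14.6 ± 2.5 units in controls against 25.2 ± 16.2 units in mutants, with 43.6 units in mutant replicate 3, 2.24 times the next highest library.

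Bcl2l2, which encodes BCL-W, stood the other way at 27.1, 19.98 and 24.5 units in controls against 19.6, 19.5 and 18.5 units in mutants. The 3 mutant values were close together and just below the lowest control value. Mutants differed from controls by a log2 of -0.29 ± 0.15 (limma adjusted p of 0.589) and -0.27 ± 0.16 without mutant replicate 3. The annotation holds a read-through gene, Gm20521, on the same strand that shares 13.3% of the exon bases of Bcl2l2, so the value is uncertain. Bcl2, the founding guardian, had 2.16 ± 0.314 and 2.00 ± 0.548 units.

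BH3-only genes encode products that release the pore formers by binding guardians. Of those among the members, 3 of 4 tested were lower and 1 was higher, where 52.7% of all tested genes were lower. Pmaip1 and Bbc3, BH3-only genes outside the members that are described below, were higher in every mutant library. Bcl2l11, which encodes BIM, had 4.66, 5.84 and 4.26 units in controls against 3.61, 3.02 and 4.18 units in mutants. The highest mutant value, in replicate 3, lay just below the lowest control value. On the log2 scale the difference was -0.36 ± 0.17, and it was larger in size without mutant replicate 3, at -0.45 ± 0.17 (limma adjusted p of 0.589 and 0.819). Bmf, a BH3-only gene tied to the cytoskeleton and to loss of attachment, had 1.46, 2.34 and 0.918 units in controls against 0.505, 1.01 and 0.529 units in mutants. Mutant replicate 2 lay above control replicate 3, and the log2 difference was -0.59 ± 0.26 (adjusted p of 0.589 in limma). As with Casp12, the value at these low levels depends on the pseudocount: it was -1.06 with 0.1 and -0.20 with 5.

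Bad had 39.0 ± 3.36 and 33.9 ± 5.38 units, and Bid, which links CASP8 to mitochondria, had 8.89 ± 1.11 and 9.96 ± 2.05 units in controls and mutants. Exons of Bad and Bid overlap Gpr137 and Bcl2l13 on the opposite strand. Bik was not tested and had 0.962 ± 0.366 and 0.740 ± 0.198 units.

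Less studied relatives of the family, Bcl2l14 and Bcl2l15, differed in opposite directions. Bcl2l14 had 22.3, 20.9 and 18.6 units in controls against 18.3, 18.6 and 14.0 units in mutants, where control replicate 3 (18.65 units) and mutant replicate 2 (18.59 units) nearly touch. Its log2 difference was -0.27 ± 0.16, and -0.15 ± 0.14 without mutant replicate 3 (limma adjusted p of 0.590 and 0.938). Bcl2l15, a relative expressed in the gut, had 69.9, 31.4 and 124 units in controls against 121, 112 and 115 units in mutants. The 3 mutant values lay close together, while control libraries spread over more than the whole group difference and control replicate 3 was the highest of the 6. The log2 difference of Bcl2l15 was 0.83 ± 0.45 with all libraries and 0.83 ± 0.52 without mutant replicate 3 (limma adjusted p of 0.590 and 0.919). It rests on the controls: it was 0.32 without control replicate 2 and 1.29 without control replicate 3. The annotation gives Gm43064 on the same strand, with 21.0% of the exon bases of Bcl2l15.

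**Figure D3:**
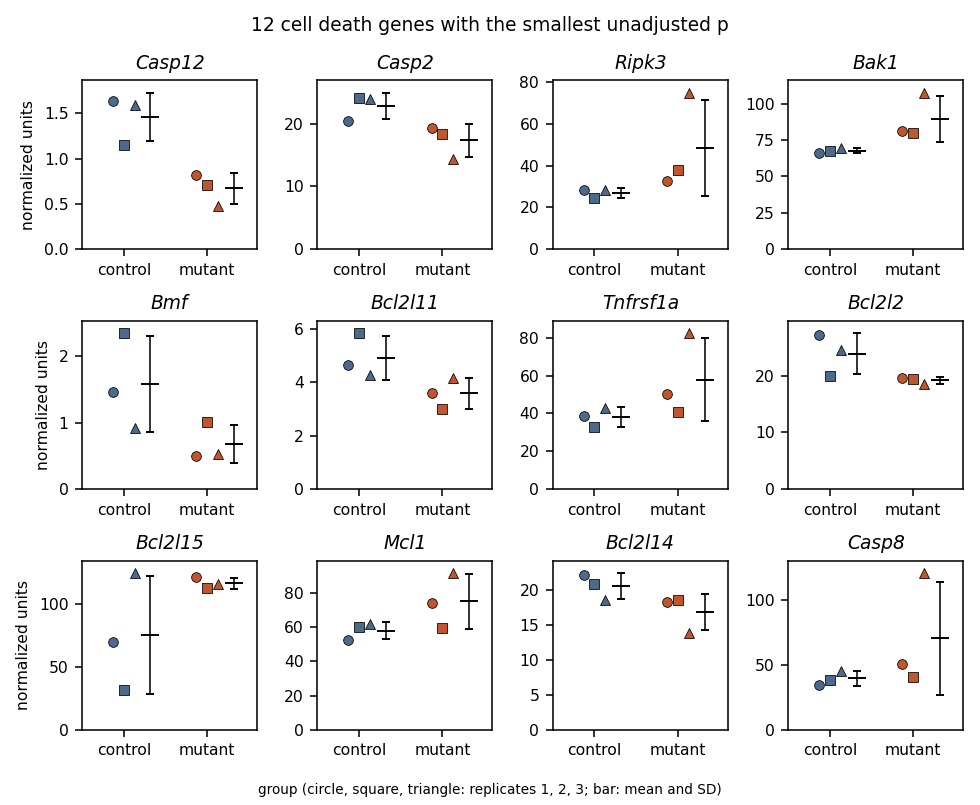
Normalized units (vertical axes, linear from 0) in the 3 control and 3 mutant libraries for the 12 cell death genes with the smallest unadjusted p; symbols mark replicates 1 to 3 and bars the mean and SD. Casp12, Casp2, Bcl2l11, Bcl2l2 and Bcl2l14 are lower and Bak1 and Ripk3 higher in every mutant library, while Casp8 and Tnfrsf1a are set apart mostly by mutant replicate 3.

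Of the IAP genes and their antagonist, 2 were higher and 2 lower, and none passed. Xiap, which blocks caspases directly, had 20.7 ± 2.77 units in controls against 27.3 ± 12.4 units in mutants, with 40.5 units in mutant replicate 3. Birc2 and Birc3, which encode the ubiquitin ligases cIAP1 and cIAP2 of TNF receptor signalling, had 19.7 ± 2.00 and 13.6 ± 1.02 units in controls against 16.8 ± 1.12 and 16.5 ± 4.77 units in mutants. Birc2 was lower in mutant replicates 1 and 2 than in every control library. Diablo, whose product SMAC displaces IAPs from caspases, had 17.1 ± 0.287 and 15.5 ± 2.15 units. Its log2 difference was -0.14 ± 0.14, with a 95% confidence interval of -0.47 to 0.19, and it was -0.05 without mutant replicate 1 and -0.24 without mutant replicate 2. Of the exon bases of Diablo, 19.3% are shared with Gm49027 on the same strand and 21.5% with B3gnt4 on the opposite strand, so its value is uncertain.

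Of the 4 genes of death receptor signalling, 3 were higher and 1 was lower, and none passed. Tnfrsf1a, which encodes TNF receptor TNFR1, had 38.6, 32.8 and 43.0 units in controls against 50.1, 40.7 and 82.3 units in mutants. Mutant replicates 1 and 3 lay above all control values, and mutant replicate 2 lay below control replicate 3. The log2 difference was 0.53 ± 0.27, and 0.25 ± 0.17 without mutant replicate 3 (limma adjusted p of 0.589 and 0.938). Downstream of it, the adaptor gene Fadd had 8.65 ± 1.37 and 7.32 ± 1.57 units and the kinase gene Ripk1 12.3 ± 1.43 and 14.0 ± 3.50 units in controls and mutants. Of the exon bases of Ripk1, 2.89% are shared with Serpinb6a on the opposite strand, a gene listed at a mean of 265.3 units. Another 6.12% are listed as shared with Gm17084 on the same strand, so the Ripk1 value is uncertain. Cflar, which encodes the CASP8 regulator cFLIP, was the member nearest to no difference, at 30.6 ± 1.94 and 30.96 ± 3.35 units. Its log2 difference was 0.01 ± 0.14 with a 95% confidence interval of -0.31 to 0.34.

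Of the necroptosis pair, the kinase gene Ripk3 was higher in every mutant library and the effector gene Mlkl in mutant replicate 3 alone. Ripk3 had 28.4, 24.3 and 28.2 units in controls against 32.7, 38.1 and 74.96 units in mutants. Mutant replicates 1 and 2 stood above all control values as well, although mutant replicate 3 was 1.97 times the next highest. Mutants differed from controls by a log2 of 0.73 ± 0.30 with a 95% confidence interval of 0.02 to 1.45, and 0.38 ± 0.15 without mutant replicate 3 (unadjusted p of 0.0461 and 0.0404, limma adjusted p of 0.589 and 0.819). Mlkl, whose product ruptures the membrane once RIPK3 has phosphorylated it, had 9.11, 6.84 and 7.88 units in controls against 7.20, 7.93 and 21.8 units in mutants; it was singled out after its values were seen. Without mutant replicate 3 its log2 difference went from 0.42 ± 0.39 to -0.06 ± 0.16.

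Mutant replicate 3 set much of the upper end. It held the highest of the 6 values for 15 of 30 members (50.0%, beside 29.7% of all tested genes) and the lowest for 8 (26.7%, beside 36.4%). In 9 members (beside 9.99% of all tested genes) it was more than 1.5 times the next highest library, a measure chosen after the values were seen: Gsdmd, Casp4, Casp8, Mlkl, Bcl2l1, Ripk3, Tnfrsf1a, Xiap and Birc3. The same library was the lowest of the 6 for Casp1, Casp12, Casp2, Casp6, Bcl2l2, Bad, Bcl2l14 and Fadd. It was also the one with the highest summed units of interferon response genes (1700), immune cell markers (380), villus enterocyte markers (26200) and stromal markers (50.5), and with the lowest of Paneth cell markers (42600). The median size of its departure from the control mean was 0.65 on the log2 scale over the members and 0.40 over all tested genes. In mutant replicate 1 it was 0.27 over the members and 0.17 over all tested genes, and in mutant replicate 2 it was 0.13 and 0.18. Mutant replicates 1 and 2 were both above all control values for the same 2 members, Bak1 and Ripk3 (beside 11.0% of all tested genes), and both below for 7, which are the 5 named before with Bcl2 and Birc2 (beside 10.8%).

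**Figure D4:**
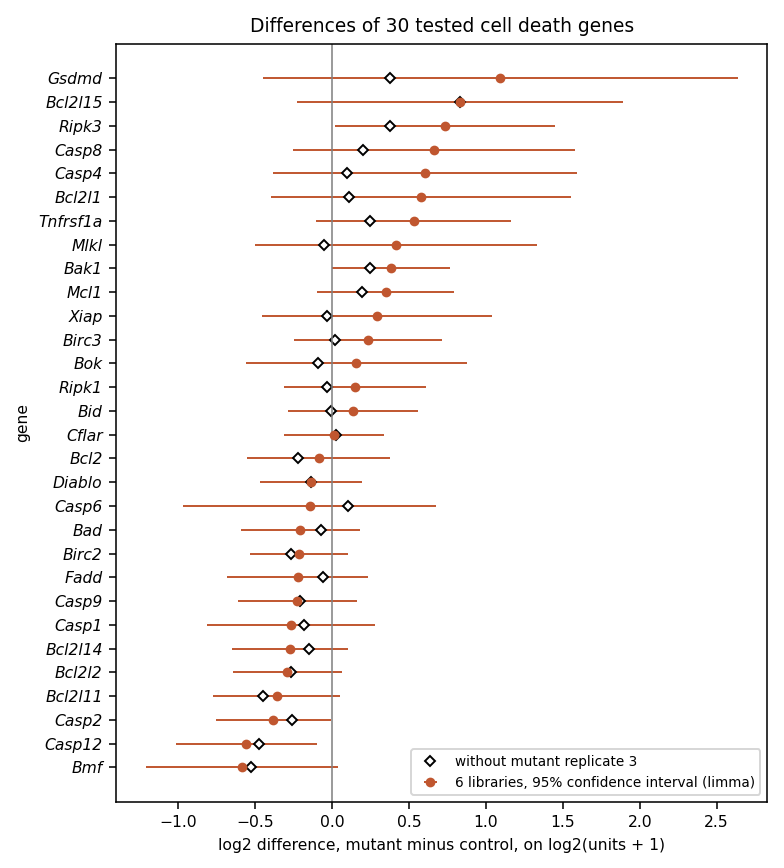
Log2 difference, mutant minus control, on log2(units + 1), for the 30 tested cell death genes, with all 6 libraries (filled points, bars give the 95% confidence interval from limma) and without mutant replicate 3 (open diamonds). Diamonds of Gsdmd, Casp8, Casp4, Bcl2l1 and Mlkl lie nearer to 0 than the filled points, while those of Bcl2l15, Bcl2l2 and Bmf hardly move.

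Other genes of the same pathways, outside the 31, were compared through a list of 63 symbols, of which 62 were in the table and 49 reached the minimum mean. None passed over all genes (0 higher and 0 lower at an adjusted p under 0.05, smallest adjusted p of 0.589 in limma). Of the 49, 33 were higher and 16 lower, by a median log2 difference of 0.09, or -0.0034 without mutant replicate 3. In 6 (12.2%) every mutant library exceeded every control library and in 3 (6.12%) every mutant library was under them, beside 8.34% and 8.37% of all tested genes.

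Partners of Bak1 in opening mitochondria were among the 6. Bax, the other main pore former, had 48.4, 50.1 and 49.2 units in controls against 57.4, 86.5 and 168 units in mutants, a log2 difference of 0.92 ± 0.36, and 0.51 ± 0.20 without mutant replicate 3 (limma adjusted p of 0.589 and 0.819). The 3 control values lay close together, and every mutant library lay above them. The BH3-only genes Pmaip1 and Bbc3, which encode NOXA and PUMA, had 9.34 ± 1.34 and 1.06 ± 0.321 units in controls against 25.0 ± 22.7 and 2.01 ± 1.07 units in mutants. Pmaip1 had 51.2 units in mutant replicate 3, 3.82 times the next highest library, and its groups nearly touch, at 10.547 units in control replicate 3 and 10.549 in mutant replicate 2. Without mutant replicate 3 the log2 difference went from 1.00 to 0.33 for Pmaip1 and from 0.50 to 0.23 for Bbc3. Bax, Pmaip1 and Bbc3 are known targets of p53. Pmaip1 and Bbc3 were taken from the list because their groups do not overlap, and a link of p53 to these values was not tested.

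Genes of death receptor signalling stood on both sides. Tnfsf10, which encodes the death ligand TRAIL, had 25.9, 24.4 and 28.6 units in controls against 17.9, 14.4 and 11.5 units in mutants. Its log2 difference was -0.82 ± 0.18, with the smallest unadjusted p in the list (0.00268; limma adjusted p of 0.589), and -0.67 ± 0.15 without mutant replicate 3. Tradd, the adaptor of TNFR1, had 22.0, 20.7 and 25.6 units in controls against 32.4, 29.9 and 64.3 units in mutants, a log2 difference of 0.78 ± 0.29, and 0.44 ± 0.15 without mutant replicate 3 (limma adjusted p of 0.589 and 0.769). Tradd and Tnfrsf1a had the same order of mutant libraries, with replicate 3 highest and replicate 2 lowest. That order was not particular to them: Gsdmd, Casp8, Bcl2l1, Mcl1, Bak1, Xiap, Birc3 and Ripk1 also had it. Rbck1, a subunit of the linear ubiquitin ligase complex, had 43.4 ± 4.23 and 57.5 ± 17.6 units, with 77.8 units in mutant replicate 3. The groups of Rbck1 nearly touch, at 46.395 units in control replicate 3 and 46.58 in mutant replicate 1.

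Among the relatives of the IAP genes, Naip6 had 28.4 ± 3.02 units in controls against 40.8 ± 9.84 units in mutants, and Birc6 had 19.8 ± 2.24 and 14.5 ± 3.24 units. The groups of Birc6 nearly touch, at 17.475 units in control replicate 3 and 17.429 in mutant replicate 1. Naip6 belongs to a family of near-identical copies, so its value is uncertain. The log2 difference was 0.49 for Naip6 and 0.17 for Naip5, but -0.50 for Naip1 and -0.28 for Naip2. The groups of Naip1, Naip2 and Naip5 overlapped.

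**Figure D5:**
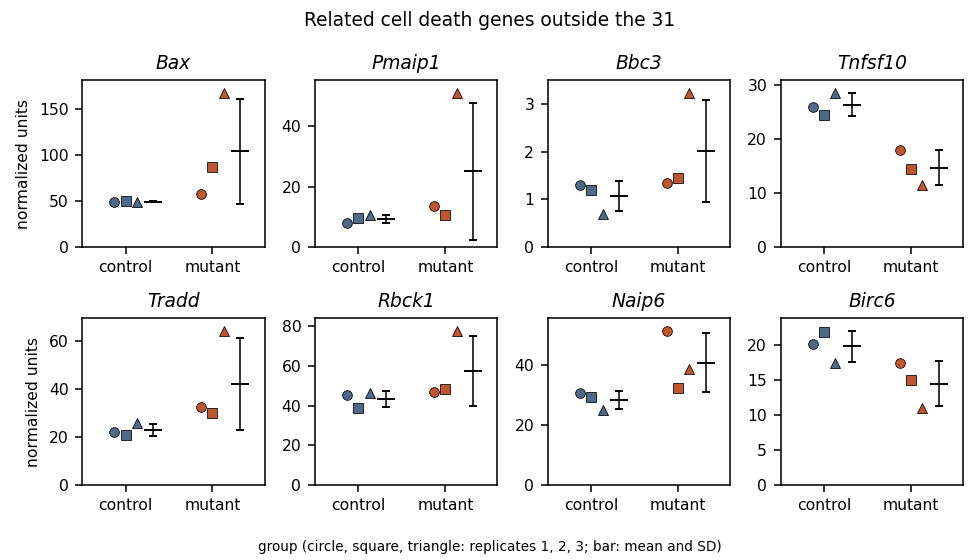
Normalized units (vertical axes, linear from 0) in the 3 control and 3 mutant libraries for 8 cell death genes outside the 31; symbols mark replicates 1 to 3 and bars the mean and SD. Bax and Tradd are higher and Tnfsf10 is lower in every mutant library.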

How the data were processed

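Poly(A) RNA of 6 libraries was sequenced on an Illumina platform after random-primed cDNA synthesis, per the labels' protocols. The authors deposited a signal per gene, an abundance already normalized across libraries. The submitters' processing notes name DESeq2 1.40.1, kallisto 0.46.1 and the build mm9 without a role for each, and how the deposited signal was computed is not given in the sources used here. Its values are not counts (0.0% of those above 0 are whole), library totals ranged from 645225 to 1268771 units, median-of-ratios factors lay between 0.990 and 1.01, and absolute read depth is unknown, so no counting interval is given. 0 value columns lacked a sample.

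Values were transformed to log2(units + 1). Genes averaging 1 unit or more were tested with limma 3.58.1 in R 4.3.3 (trended variance, only group in the model, Benjamini-Hochberg adjustment, threshold of 0.05). In simulated data with 11837 genes and the spreads of mutant against control, limma recovered 46.9% of changes of 1 on the log2 scale, 85.3% of changes of 2, and called 0.073% of unchanged genes. The simulation drew every gene and library independently, with the same spread in both groups. It held no library that departs over many genes as mutant replicate 3 does, so these shares do not measure the power of the comparison made here. The members and lists were chosen with earlier results of these data known. Genes given with all 6 values are those with groups that do not overlap and the 12 with the smallest p. Of the related list, up to 8 genes with groups that do not overlap, by smallest p, and Bax were taken. Among these, Pmaip1, Bbc3, Rbck1, Naip6 and Birc6 are given as mean and SD. Other exceptions are named. Some genes of this rule are not reported here. Same-numbered libraries share no label of animal or day, and the fit had no block. Promoters came from RefSeq (GRCm38.p6) and exon overlaps from GENCODE M21, matched by symbol because the builds differ. Tables were made in Python 3.11.15 (NumPy 2.4.6, pandas 2.3.3) and figures with matplotlib 3.10.9. 14 alternatives were planned and 1, sex as a covariate, was added after seeing the data.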

Additional observations from a re-analysis of the deposited data

How the results depend on the processing

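No cell death gene passed the adjusted threshold in limma under any of the 15 alternatives; the smallest adjusted p of a member in any of them was 0.123. Of 443 refitted differences of single members, 429 kept their direction and 14 turned. With array weights, which down-weight outlying libraries, Casp6, Bok and Mlkl turned to 0.346, -0.228 and -0.112. Leaving out 1 library turned 8 members, over ranges of -0.424 to 0.154 (Casp6), -0.0939 to 0.389 (Bok), -0.222 to 0.0424 (Bcl2), -0.00976 to 0.24 (Bid), -0.0328 to 0.616 (Xiap), -0.0682 to 0.0802 (Cflar), -0.0353 to 0.259 (Ripk1) and -0.0558 to 0.681 (Mlkl); the cause was not tested. Casp12 and Bmf were -1.03 and -1.06 with a pseudocount of 0.1, and -0.188 and -0.205 with 5. Members with all mutant values above control numbered 2 to 8 when 1 library was left out, with 6 without control replicate 3 and 8 without mutant replicate 2, and those below 5 to 7, or 4 after either rescaling (Bcl2l14 was lost with median of ratios and Bcl2l2 with upper quartile factors) and 3 with a minimum mean of 5 units, where 26 members were tested. Over all genes, 0 were called higher and 2 lower; these counts were 1 and 2 with a pseudocount of 0.1, 1 and 0 with a pseudocount of 5, 20 and 7 with array weights, 0 and 1 after upper quartile scaling, 0 and 0 without a filter on low values, with the replicate block and with sex as a covariate, and 0 to 2 and 0 to 3 when 1 library was left out. The replicate block is given for completeness: correlations of the deviations of same-numbered libraries were -0.292, 0.333 and 0.325, and not every library correlated best with its own number. Deviations from a mean of 3 libraries depend on one another, so these correlations cannot decide whether the numbers pair the libraries. By Xist, 2 control libraries and 1 mutant library are male. By the group means of the scaling factors, median of ratios shifted a log2 difference by -0.000516 and upper quartile scaling by 0.00321, before the pseudocount. Read depth is unknown, so the counting error of low genes such as Bik, Bmf and Casp12 cannot be stated.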

Other observations

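Some other genes of pyroptosis and necroptosis are given here, chosen after their values were seen. The gasdermin C genes encode pore formers of the intestinal epithelium. Gsdmc4 had 526, 449 and 97.3 units in controls against 39.8, 219 and 1.35 units in mutants, a log2 difference of -3.37 ± 1.57 (n = 3 per group; adjusted p of 0.589 in limma), or -1.59 without mutant replicate 3. Gsdmc2 had 571, 224 and 85.1 units in controls against 55.6, 210 and 4.19 units in mutants, and Gsdmc3 had 217, 81.2 and 30.5 against 16.9, 80.8 and 0.316 units. These 3 genes are near-identical copies, so the split of reads between them is uncertain. For all 3 the groups overlapped through mutant replicate 2, and mutant replicate 3 was lowest. Paneth cell markers summed to 407000, 182000 and 115000 units in controls against 65500, 190000 and 42600 units in mutants, and the part of that difference in the gasdermin C values was not tested.

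Zbp1, an interferon-induced sensor that activates RIPK3, had 22.8, 11.0 and 15.4 units in controls against 17.8, 13.7 and 165 units in mutants, a log2 difference of 1.10 ± 0.88 with all libraries and -0.01 without mutant replicate 3. The inflammasome adaptor gene Pycard had 146, 194 and 188 units in controls against 165, 175 and 57.8 units in mutants, lowest in the library where Gsdmd and Casp4 were highest. Nlrp6, an inflammasome sensor of the gut epithelium, had 83.3, 97.8 and 121 units in controls against 83.8, 71.3 and 38.4 units in mutants (log2 difference of -0.69 ± 0.31, adjusted p of 0.589 in limma), and the difference was -0.36 without mutant replicate 3.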
